A study of Danio rerio with 4 samples.

Results

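A pair of fish immune receptor families was followed here in single blood cells of zebrafish larvae: the DICPs (diverse immunoglobulin domain-containing proteins) and the NITRs (immune-type receptors of teleost fish). The members were all features whose symbol starts with dicp or nitr followed by a digit and that held at least 10 unique molecular identifiers (UMIs) over the 4 libraries. Of 27758 features in all, 36 carried such a symbol, and 27 of these passed the minimum, 9 DICPs and 18 NITRs. The rule used only names and summed UMIs, not the cells in which the UMIs lay. The member just inside the minimum was nitr10a with 11 UMIs, and nitr9 with 9 UMIs was just outside. Of the 9 features left out, 3 were at 0 UMIs.

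Embryos received DMSO, the solvent, or 20 µM SB431542, which inhibits the TGF-β type I receptor ALK5 (written ALK5i), from 30 to 50 hours post fertilization. Sorted cells of whole larvae were sequenced later as 1 library per group: at 3 days post fertilization (dpf) cells sorted as gata2b GFP+, after DMSO or ALK5i, and at 6 dpf cells sorted as mpeg1.1 mCherry+, again after DMSO or ALK5i. The labels give no genotype, strain or number of larvae behind a library, and each library is one pool. Stage and sort changed together and cannot be told apart, and treatment, pool and library cannot be told apart either, so no test was possible and all intervals cover counting error only.

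DICPs and NITRs are cell surface proteins of the immunoglobulin superfamily. Both families hold inhibitory forms, whose cytoplasmic tails carry tyrosine motifs that recruit phosphatases, and forms that signal through adaptor proteins or lack such motifs. In zebrafish, NITRs are known from lymphoid cells and are compared with the receptors of natural killer cells of mammals, while DICP immunoglobulin domains are known to bind lipids. The genes lie in clusters of close copies: of 23 member symbols, 19 were found in the RefSeq table of the GRCz12tu assembly, 18 of them next to another gene of the families, and 14 of the 15 NITR symbols lay on 1 chromosome. Only the gene order was taken from that table, since the reads were mapped to GRCz11 per the submitters' processing notes.

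Of the member symbols, 3 are shared by several features, which are told apart here by a letter. The dicp1.1 copies are dicp1.1-a (ENSDARG00000091993) and dicp1.1-b (ENSDARG00000111013). The nitr6b copies are nitr6b-a (ENSDARG00000109301), nitr6b-b (ENSDARG00000110751) and nitr6b-c (ENSDARG00000111430). The nitr1b copies are nitr1b-a (ENSDARG00000069773), which a newer gene name table calls nitr1o, and nitr1b-b (ENSDARG00000115144). Reads that match several near-identical copies could have been split or dropped in counting, so levels of single copies are uncertain.

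The deposited barcodes held 12121332 to 97212191 UMIs per library. After filters and removal of doublet calls, 31589 (DMSO) and 25325 (ALK5i) cells were kept at 3 dpf, with median depths of 2322 and 1735 UMIs, and 1979 and 1179 cells at 6 dpf, with 5672 and 6452 UMIs. Libraries shared between 3 and 248 barcodes. Cells were clustered without the member genes, so that no member shaped the clusters directly. Genes that vary with the members stayed in, so where a member lies is not fully independent of the clusters. Macrophage-like cells numbered 10035 and 9618 at 3 dpf and 612 and 404 at 6 dpf, and their median depths were 2617, 1840, 10577 and 8871.5 UMIs. Lymphoid-like cells numbered 2881 and 2099 at 3 dpf but only 37 and 41 at 6 dpf. The macrophage marker list, of which 21 of 22 genes were above 0 in macrophage-like cells of every library, summed to 13184 to 18539 CPM (UMIs of a feature scaled to 1e+06 UMIs of the class) there. In lymphoid-like cells it summed to 532 and 408 CPM at 3 dpf, and to 1665 (DMSO) and 7401 CPM (ALK5i) at 6 dpf. The added reporter sequence EYFP stood at 4359 and 4107 CPM in lymphoid-like cells at 3 dpf, but at 37.6 and 14.8 CPM in macrophage-like cells.

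The families divided by cell class. DICP UMIs were 49138 over the 4 libraries, and 46370 of them came from dicp3.1, dicp3.3, dicp2.1 and dicp2.2. NITR UMIs were 1962. At 3 dpf macrophage-like cells held 87.9% of the DICP UMIs of kept cells, and lymphoid-like cells held 64.4% of the NITR UMIs. At 6 dpf macrophage-like cells held 94.3% of DICP and 82.1% of NITR UMIs, of which nitr2b made up 264 of 308. Lymphoid-like cells were few at that stage (37 with DMSO, 41 with ALK5i), but their NITR level was the higher one. The NITR sum stood at 67.1 and 80.5 CPM there, against 30.8 and 27.1 CPM for the macrophage-like class.

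**Figure D1:**
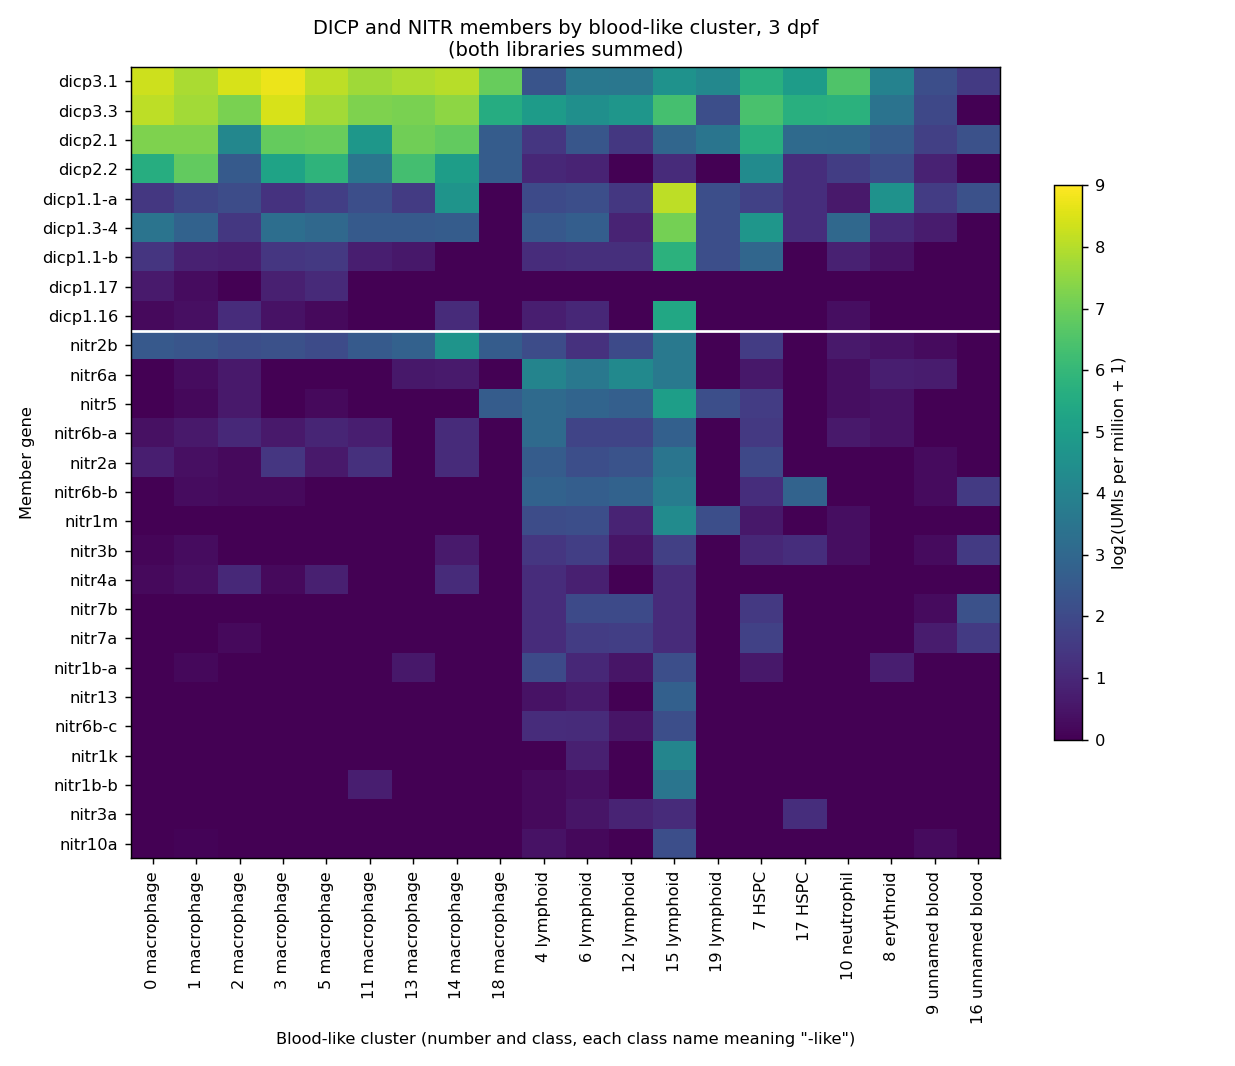
Level of each member (rows, DICPs above the white line) in each blood-like cluster at 3 dpf (columns), as log2(CPM + 1), with both libraries summed. The 4 upper DICPs fill the macrophage-like columns, most NITRs the lymphoid-like ones, and cluster 15 holds the highest levels of 4 further DICPs and of 10 NITRs.

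A member was taken to mark a class when its CPM there was at least 3 times that of all other kept cells in both libraries of a stage, with at least 10 UMIs in the class. At 3 dpf, 6 members marked macrophage-like cells among 13 with enough UMIs, against 8.02% of all features. They were dicp3.1, dicp3.3, dicp2.1, dicp2.2, dicp1.17 and nitr2b. Lymphoid-like cells were marked by 16 members of 24, against 9.24% of features, and 14 of these were NITRs. At 6 dpf, 7 members of 10 marked macrophage-like cells, against 13.9% of features: the same 6 and dicp1.3-4. The last was not highest there: it stood at 27.8 CPM (5 UMIs) in the neutrophil-like cluster 9. Macrophage-like cluster 4 came next at 26.7 CPM, and the whole macrophage-like class stood at 4.71 (DMSO) and 2.58 CPM (ALK5i). None of the 2 members with enough UMIs marked the few lymphoid-like cells at 6 dpf, against 9.77% of features. Both were DICPs, and no NITR had 10 UMIs there, so marking by NITRs could not be judged.

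Within the macrophage-like class, dicp3.1 was the most abundant member in every library. It stood at 285 CPM (279 to 292) with DMSO and 312 CPM (304 to 320) with ALK5i at 3 dpf, and at 182 CPM (172 to 192) and 189 CPM (176 to 203) at 6 dpf. Both 3 dpf libraries were above both 6 dpf libraries. In neuron-like cells, which served as background, dicp3.1 stood at 4.73 and 3.41 CPM at 3 dpf. A dicp3.1 UMI was found in 50.3% and 42.7% of macrophage-like cells at 3 dpf, against 1.86% and 0.949% of neuron-like cells, whose median depths were 2322 and 1559.5 UMIs. With each cell thinned to 1000 UMIs the shares in macrophage-like cells were 25.2% and 26.6% at 3 dpf and 18.2% and 16.6% at 6 dpf. Thinning left out 392 and 861 macrophage-like cells at 3 dpf and 24 and 7 at 6 dpf.

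The related dicp3.3 followed at 209 CPM (DMSO) and 263 CPM (ALK5i) at 3 dpf, and at 135 and 139 CPM at 6 dpf. The 3 dpf libraries were again the higher ones. Both dicp3 members peaked in the same 3 dpf cluster, number 3, which was led by ndrg1a, ocstamp, prdm1a and ctsk, the last a protease of bone-resorbing cells. There dicp3.1 reached 402 (DMSO) and 475 CPM (ALK5i), and dicp3.3 reached 309 and 437 CPM.

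The dicp2 members, which are direct neighbours in the RefSeq table, divided the macrophage-like clusters more sharply. Cluster 2 was led by apoeb, apoc1, p2ry12 and other genes of microglia, the macrophages of the brain, and held 12 macrophage and 10 microglia markers. Here dicp3.1 stood at 335 (DMSO) and 360 CPM (ALK5i), while dicp2.1 stood at 21.5 and 11.5 CPM. In cluster 0, led by abcg2a and irf8, dicp2.1 stood at 161 and 139 CPM, and in cluster 1, led by the cytokine genes il6 and tnfa, at 161 and 146 CPM. The smaller cluster 18, led by apoc1, glula and apoeb, held 168 cells and had dicp3.1 at 126 and 105 CPM.

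The other gene of the pair, dicp2.2, was highest in the cytokine cluster 1, at 115 CPM with DMSO and 113 CPM with ALK5i, where 1510 of its 2956 blood-like UMIs lay. Both libraries gave nearly the same level. It stood at 49.3 and 44.7 CPM in cluster 0 and at 4.11 and 5.73 CPM in cluster 2. In cluster 1, a dicp2.2 UMI was found in 29.1% of the 1409 cells with a dicp2.1 UMI and in 16.7% of the 3253 cells without one. Median depth in those cells was 2923 and 2527 UMIs, and its part in this difference was not tested.

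**Figure D2:**
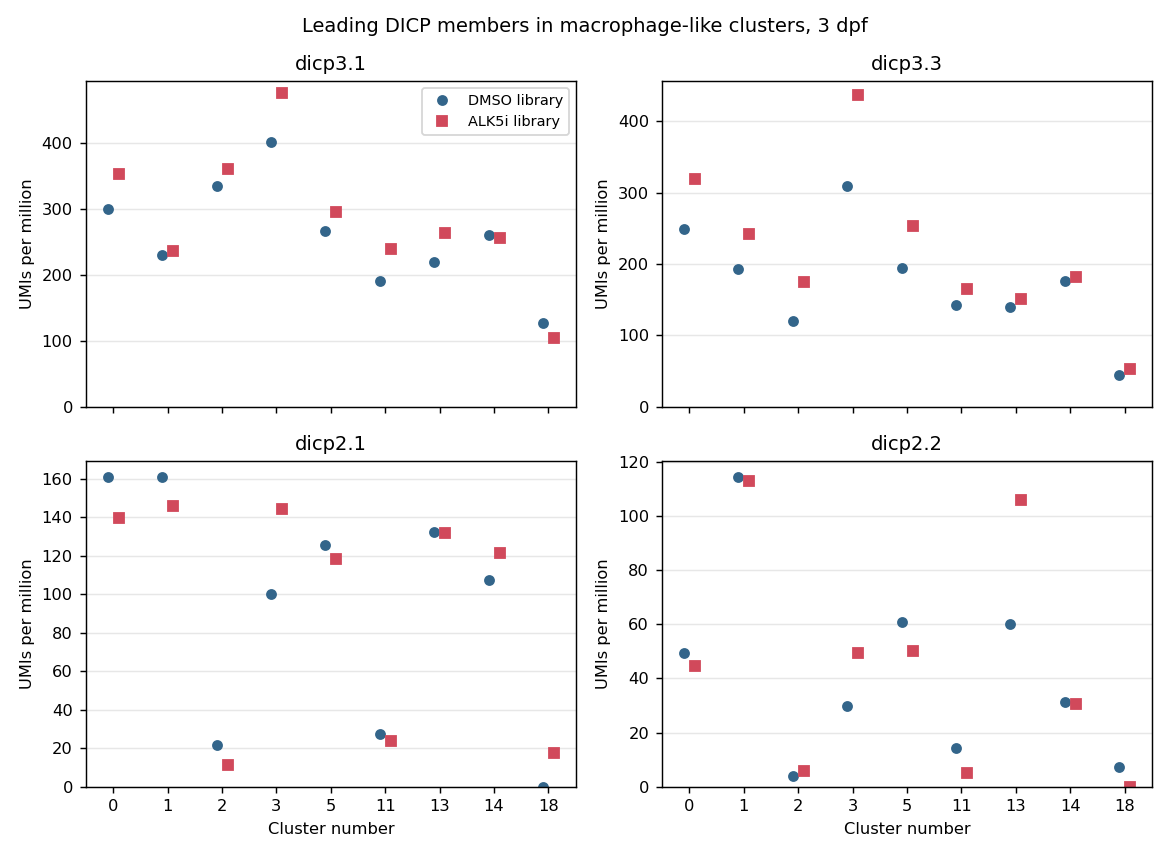
Level of the 4 leading DICP members (CPM) in each macrophage-like cluster at 3 dpf, 1 point per library (blue circle DMSO, red square ALK5i). In cluster 2 dicp3.1 is at 335 and 360 while dicp2.1 is at 21.5 and 11.5, and dicp2.2 peaks in cluster 1 at 115 and 113.

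At 6 dpf, dicp2.1 again varied among macrophage-like clusters. It stood at 176 (DMSO) and 177 CPM (ALK5i) in cluster 0, which had il1fma and fut7 among its leading genes. In cluster 5, led by the ferritin genes fthl29 and fthl28, the iron exporter gene slc40a1 and the heme oxygenase gene hmox1a, it stood at 9.76 and 8.78 CPM. In that cluster dicp3.1 stood at 112 and 65.9 CPM, and dicp2.2 was found as 2 UMIs with DMSO and none with ALK5i.

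Apart from dicp1.17, the dicp1 members had their highest level at 3 dpf outside the macrophage-like clusters. It lay in cluster 15, 440 lymphoid-like cells (240 DMSO, 200 ALK5i) with a median depth of 1814 UMIs, led by eomesa, mef2b, mrtfaa and ccr2. Eomesa, a T-box transcription factor of natural killer and T cells in mammals, stood at 548 CPM in it and at 17.9 CPM or less in each other blood-like cluster at 3 dpf. The cluster held 6 T lineage and 3 natural killer or innate lymphoid markers. It also held 2 markers each of the macrophage, dendritic cell and stem and progenitor lists. The thrombocyte, microglia and mast cell or eosinophil lists had 1 each. The macrophage genes mpeg1.1 and marco stood at 41.3 and 29.9 CPM in it, against 428 and 808 CPM in cluster 0. Both were picked from the macrophage list, and the levels of its other genes are not given here. They do not show that macrophage genes were low as a set.

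In cluster 15, dicp1.1-a stood at 253 CPM (138 UMIs) with DMSO and at 302 CPM (98 UMIs) with ALK5i. The next blood-like cluster had 24.2 CPM over both libraries. The cluster made up 1.47% of blood-like cells and held 45.4% of their dicp1.1-a UMIs. For dicp1.3-4 the levels were 128 and 157 CPM, for dicp1.1-b 64.1 and 36.9 CPM, and for dicp1.16 44.0 and 36.9 CPM. The next blood-like clusters of these 3 members stood at 25.4, 6.92 and 1.21 CPM.

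The dicp1 UMIs of cluster 15 were spread over many cells. A dicp1.1-a UMI lay in 98 of the 440 cells, with at most 8 in a cell, and a dicp1.3-4 UMI in 75 cells. Of the 98 cells with dicp1.1-a, 38.8% also had dicp1.3-4, against 10.8% of the 342 cells without it. Median depths of these cells were 1935 and 1791 UMIs.

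Outside cluster 15, dicp1.1-a had a second, broader pattern. Erythroid-like cells stood at 25.5 (DMSO) and 17.1 CPM (ALK5i), pigment cell-like cells at 10.3 and 11.4 CPM and neuron-like cells at 9.13 and 9.28 CPM. Macrophage-like cells stood lower, at 2.87 and 3.47 CPM, and mesenchyme-like cells at 3.36 and 2.58 CPM. Pigment cell-like cells, the largest class outside blood, held 334 of the 986 dicp1.1-a UMIs of kept cells at 3 dpf. By comparison, dicp1.3-4 had 39 UMIs in pigment cell-like cells, which was 5.52% of its UMIs.

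By 6 dpf the macrophage-like level of dicp1.1-a was 21.9 CPM with DMSO and 13.4 CPM with ALK5i. The iron-handling cluster 5 held 95 of its 221 blood-like UMIs, at 130 CPM (80 UMIs) with DMSO and 65.9 CPM (15 UMIs) with ALK5i. Those UMIs came from 27 of 81 cells, with at most 12 in a cell. The next cluster, erythroid-like, stood at 57.2 CPM from 5 UMIs. At 3 dpf the cluster led by fthl29 and hmox1a (number 14) had dicp1.1-a at 28.6 and 16.2 CPM, and the other macrophage-like clusters had at most 3.50 CPM over both libraries.

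The blood-like UMIs of dicp1.17 all lay in macrophage-like cells at both stages. At 3 dpf the kept cells held 20 of its UMIs, 10 from each library, and none lay in another class. At 6 dpf it stood at 15.5 CPM (102 UMIs) with DMSO and 13.4 CPM (52 UMIs) with ALK5i in macrophage-like cells. Of 154 blood-like UMIs at 6 dpf, 138 lay in cluster 4, a group of 90 cells (57 DMSO, 33 ALK5i). There the level was 218 CPM with DMSO and 254 CPM with ALK5i, and 45 of the 90 cells had a UMI (29 DMSO, 16 ALK5i). The next cluster stood at 8.15 CPM, from 5 UMIs of a single cell.

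Cluster 4 at 6 dpf was led by gdpd3b, nif3l1, cxcl19, pigrl2.3 and acp5a, held 15 macrophage markers and had mpeg1.1 at 120 CPM. It had the lowest median depth of the macrophage-like clusters at 6 dpf, 6242.5 UMIs. Alone among them, it lacked irf8, c1qa and c1qb among its counted markers. Its marco level was 112 CPM, against 335 to 1826 CPM in the other macrophage-like clusters. It was also the cluster with the highest dicp3.3, at 273 (DMSO) and 269 CPM (ALK5i), and the highest nitr2b.

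Macrophage-like cells held most UMIs of nitr2b, the NITR with most UMIs, at both stages (231 of 298 and 264 of 288). In macrophage-like cells it stood at 3.75 CPM (106 UMIs, 3.07 to 4.54) with DMSO and 6.57 CPM (125 UMIs, 5.47 to 7.83) with ALK5i at 3 dpf. At 6 dpf it stood at 26.3 CPM (173 UMIs) and 23.5 CPM (91 UMIs). Both 6 dpf libraries were above both 3 dpf libraries. Lymphoid-like cells had nitr2b at 2.94 CPM (31 UMIs) with DMSO and 2.66 CPM (15 UMIs) with ALK5i at 3 dpf. At 6 dpf they had 0 UMIs with DMSO, which allows up to 13.4 CPM, and 21.95 CPM (6 UMIs in 2 cells) with ALK5i. The classes were thus near each other with DMSO at 3 dpf and with ALK5i at 6 dpf. Shares of UMIs also depend on cell numbers, and macrophage-like cells were far more numerous. In neuron-like cells nitr2b was found as 1 UMI and 0 UMIs at 3 dpf. In cluster 4 at 6 dpf it reached 131 and 137 CPM, from 20 of 90 cells with at most 12 UMIs in a cell, and the next cluster stood at 34.5 CPM. Of the 45 cells of cluster 4 with a dicp1.17 UMI, 26.7% had nitr2b, and of the 45 without one, 17.8% had it. At 3 dpf its leading cluster was the iron-handling cluster 14, at 14.3 CPM (16 UMIs) with DMSO and 42.0 CPM (26 UMIs) with ALK5i. The lymphoid-like cluster 15 came next, at 11.5 CPM over both libraries.

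**Figure D3:**
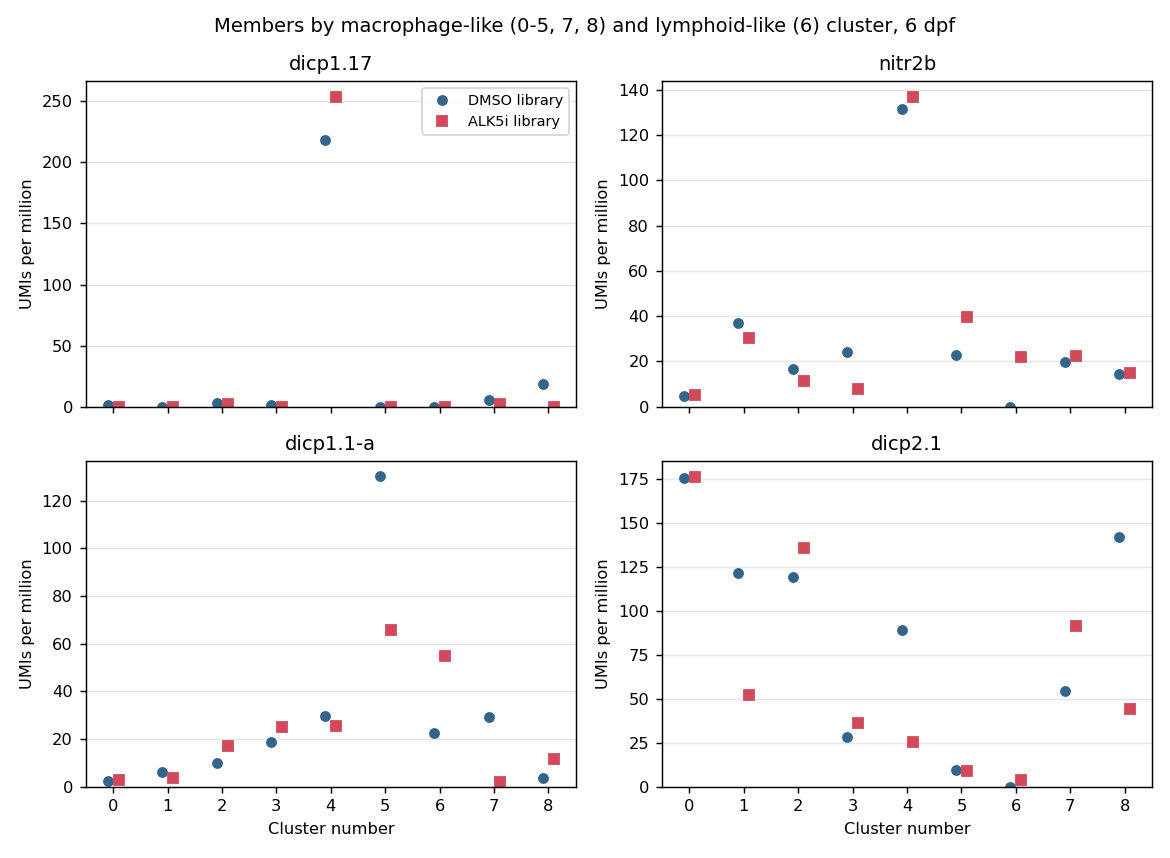
Level of 4 members (CPM) in the macrophage-like clusters and the lymphoid-like cluster 6 at 6 dpf, 1 point per library (blue circle DMSO, red square ALK5i). In cluster 4 dicp1.17 is at 218 and 254 and nitr2b at 131 and 137, in cluster 5 dicp1.1-a is at 130 and 65.9 and dicp2.1 at 9.76 and 8.78.

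Of the 16 NITRs with at least 10 blood-like UMIs at 3 dpf, 13 had their highest level in a lymphoid-like cluster, 10 of them in cluster 15. The other 3 were nitr2b, nitr7a with 2.31 CPM in the HSPC-like (hematopoietic stem and progenitor) cluster 7, and nitr7b with 3.73 CPM from 2 UMIs in the unnamed cluster 16. Macrophage-like cells held 19 of the 34 nitr4a UMIs at 3 dpf and lymphoid-like cells 13. Its levels in these classes were near each other with DMSO, at 0.531 and 0.569 CPM, and stood at 0.210 and 1.24 CPM with ALK5i. Several of these peaks rest on 2 to 5 UMIs, so only the larger ones are described.

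The NITR with most UMIs in lymphoid-like cells at 3 dpf was nitr6a, at 13.5 CPM (142 UMIs, 11.3 to 15.9) with DMSO and 13.8 CPM (78 UMIs, 10.9 to 17.2) with ALK5i. Macrophage-like cells stood at 0.212 and 0.105 CPM, and neuron-like cells had no UMI, which allows a level of up to 0.507 and 0.568 CPM. It was spread over the lymphoid-like clusters: 15.5 CPM in cluster 4 (led by tradv14.0, cd226 and tcf7), 11.2 CPM in cluster 6 (with rrm2, a gene of DNA synthesis, among its leading genes), 18.4 CPM in cluster 12 (led by the cell division genes aspm, ccnb1 and cenpf) and 11.5 CPM in cluster 15. A nitr6a UMI was found in 2.99% and 2.38% of lymphoid-like cells. A count of 9 UMIs in a single cell was the highest in those clusters.

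Cluster 15 stood above the other lymphoid-like clusters for nitr5, nitr1m, nitr1k and nitr1b-b. For nitr5 it stood at 20.2 CPM (11 UMIs) with DMSO and 52.3 CPM (17 UMIs) with ALK5i, and the next blood-like cluster had 7.68 CPM over both libraries. For nitr1m it stood at 19.5 CPM against 3.49 CPM. For nitr1k, 14 of 19 blood-like UMIs lay in cluster 15, and for nitr1b-b 9 of 13. By contrast nitr6b-a was highest in cluster 4, at 9.55 (DMSO) and 4.04 CPM (ALK5i). Both nitr7a and nitr7b had 1 UMI in cluster 15, of 27 and 36 lymphoid-like UMIs, and most of theirs in clusters 4, 6 and 12. Cluster 15 held only 440 cells, against 2157 in cluster 4 and 1734 in cluster 6, so these counts do not show a lower level there.

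The remaining NITRs with 100 or more UMIs were nitr2a, nitr6b-b and nitr6b-a. In lymphoid-like cells at 3 dpf nitr2a stood at 3.42 (DMSO) and 6.38 CPM (ALK5i), nitr6b-b at 6.45 and 5.31 CPM, and nitr6b-a at 5.31 and 3.19 CPM. All 3 stood at 0.637 CPM or less in macrophage-like cells of both libraries. The other 12 NITRs held 11 to 71 UMIs each over the 4 libraries.

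Some cells had UMIs of more than 1 NITR. In cluster 4 at 3 dpf, 169 of 2157 cells had a NITR UMI, and 54 of these had UMIs of 2 or more NITRs, up to 7. In cluster 15, 66 of 440 cells had one and 22 of these had 2 or more. Of the 9 macrophage-like clusters at 3 dpf, cluster 1 had 5 cells with 2 or more among 71 with a NITR, cluster 14 had 3 among 35, and the other 7 had none, among them cluster 0 with 56. At 6 dpf macrophage-like clusters 3, 4 and 5 had 3 each, among 21, 20 and 10, clusters 0 and 1 had 1 each, and the other 3 had none. Near-identical copies can take reads of one transcript, so these counts are of features, not of genes known to be expressed together.

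At 6 dpf the single lymphoid-like cluster (number 6, 78 cells) held 37 NITR UMIs. The sums were 67.1 CPM (37.6 to 111) with DMSO and 80.5 CPM (50.4 to 122) with ALK5i, at or above the 54.7 and 59.3 CPM of the 3 dpf libraries. Its members differed: nitr13 led with 8 UMIs, followed by nitr6b-a and nitr4a with 7 each, while nitr6a had 1 UMI. These 8 nitr13 UMIs were in 4 cells and the 7 nitr4a UMIs in 4 cells. Macrophage-like cells, which were far more numerous, held 18 of the 30 nitr6b-a UMIs and 10 of the 16 nitr5 UMIs at 6 dpf. The level of nitr6b-a there was 1.52 (DMSO) and 2.07 CPM (ALK5i). In lymphoid-like cells it was 13.4 CPM (3 UMIs) and 14.6 CPM (4 UMIs). For nitr5 macrophage-like cells stood at 1.06 and 0.775 CPM, and lymphoid-like cells at 13.4 CPM (3 UMIs) and 0 UMIs.

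**Figure D4:**
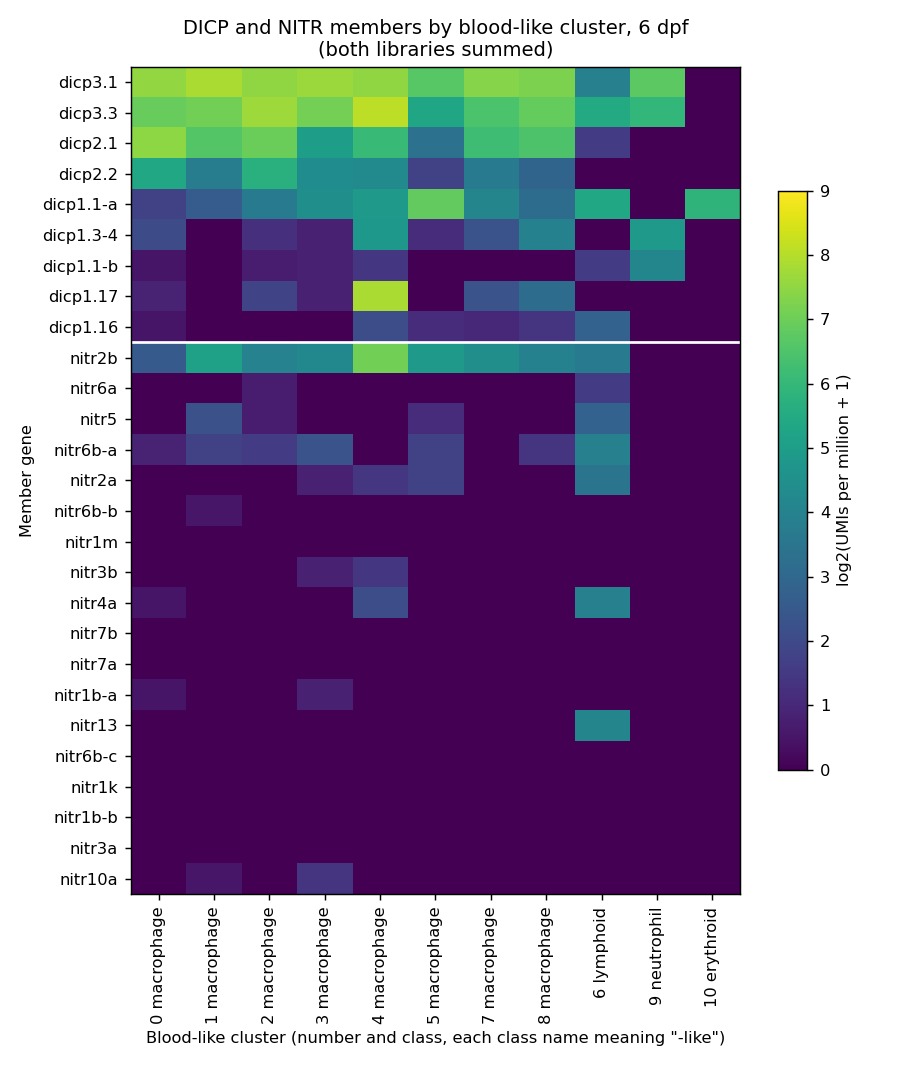
Level of each member (rows, DICPs above the white line) in each blood-like cluster at 6 dpf (columns), as log2(CPM + 1), with both libraries summed. Cluster 4 holds dicp1.17 at 230 and nitr2b at 133, and cluster 5 holds dicp1.1-a at 113.

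Progenitor and neutrophil clusters also held DICPs. In the HSPC-like cluster 7 at 3 dpf, led by spi2, s100z and runx1, dicp3.3 stood at 91.7 (DMSO) and 73.7 CPM (ALK5i), dicp2.1 at 51.6 and 48.7 CPM and dicp1.3-4 at 28.1 and 21.0 CPM. Neutrophil-like cells (cluster 10) had dicp3.1 at 94.3 and 85.8 CPM and dicp3.3 at 53.1 and 51.2 CPM, with dicp2.1 at 10.3 and 2.77 CPM.

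The balance of dicp3.1 and dicp3.3 differed between classes. As a share of the UMIs of both, dicp3.1 made up 57.7% (56.9% to 58.6%) in macrophage-like cells with DMSO at 3 dpf and 54.2% (53.3% to 55.2%) with ALK5i. Neutrophil-like cells gave 64.0% and 62.6%, HSPC-like cells 33.6% and 44.0%, and lymphoid-like cells 27.5% (23.2% to 32.1%) and 20.1% (14.7% to 26.4%). Neuron-like cells gave 50.9% and 48.6%. Lymphoid-like dicp3.3 stood at 28.0 and 27.5 CPM, against 4.56 and 3.60 CPM in neuron-like cells. With doublet calls kept, lymphoid-like dicp3.3 stood at 39.2 (DMSO) and 34.1 CPM (ALK5i), and dicp3.1 at 22.6 and 17.7 CPM instead of 10.6 and 6.91 CPM. These levels and their balance thus moved with the doublet calls.

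The inhibitor was compared with DMSO class by class to see whether receptor levels differed after the treatment had ended. A feature with at least 20 UMIs in the class over both libraries was called when its CPM differed by at least 1.5-fold. In macrophage-like cells at 3 dpf, 1 of 11 members was called, against 16.2% of features. The member was higher with ALK5i, as were 4.09% of features. It was nitr2b, at 3.75 CPM with DMSO and 6.57 CPM with ALK5i, a log2 ratio of 0.81 (0.42 to 1.2). Within clusters the ratio was 1.53 (0.66 to 2.46) in the cytokine cluster 1 and 1.56 (0.60 to 2.55) in the iron-handling cluster 14, and -0.02 (-1.47 to 1.39) in cluster 2. With 5 CPM added to each level nitr2b was not called.

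The 8 DICPs tested in macrophage-like cells at 3 dpf were not called. Nearest to a call was dicp1.17, at 0.354 (DMSO) and 0.526 CPM (ALK5i) from 10 UMIs in each library. The log2 ratio was 0.13 (0.08 to 0.18) for dicp3.1, 0.33 (0.28 to 0.39) for dicp3.3, -0.09 (-0.16 to -0.01) for dicp2.1 and 0.12 (0.01 to 0.22) for dicp2.2. Over all features tested the median ratio was -0.10, and over the 11 members it was 0.12. The sum of the DICPs stood at 689 and 768 CPM, a log2 ratio of 0.16 (0.12 to 0.19). The sum of the NITRs stood at 6.45 and 8.2 CPM, a ratio of 0.35 (0.03 to 0.66), and without nitr2b the ratio was -0.72 (-1.38 to -0.10).

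In lymphoid-like cells at 3 dpf, 6 of 18 members were called, against 12.4% of features. With ALK5i 2 were higher, against 2.86% of features, and 4 lower, against 9.58%. Those whose interval excluded 0 were nitr7a and nitr2a, which were higher, and dicp2.1 and dicp3.1, which were lower. For nitr7a the values were 0.664 CPM (7 UMIs in 7 cells) and 3.54 CPM (20 UMIs in 16 cells), a log2 ratio of 2.42 (1.12 to 3.90). For nitr2a they were 36 UMIs in each library, 3.42 and 6.38 CPM, with a ratio of 0.90 (0.19 to 1.61). The DMSO library was the lower one for both. With 5 CPM added to each level 1 of the 6 calls was left, higher with ALK5i, and the calls of dicp2.1 and dicp3.1 described next were lost.

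For dicp2.1 in lymphoid-like cells the values were 4.27 CPM (45 UMIs) and 1.42 CPM (8 UMIs), a ratio of -1.59 (-2.89 to -0.49), and for dicp3.1 10.6 and 6.91 CPM, a ratio of -0.62 (-1.19 to -0.08). With doublet calls kept dicp3.1 stood at 22.6 (DMSO) and 17.7 CPM (ALK5i), a difference of less than 1.5-fold, so its call depends on the doublet calls. A dicp2.1 UMI was found in 1.32% and 0.333% of lymphoid-like cells, against 1.07% and 0.279% of neuron-like cells, so these levels are near background. The macrophage marker list in lymphoid-like cells also moved, from 532 to 408 CPM, and its part in the result was not tested. The sums did not differ by 1.5-fold: NITRs stood at 54.7 and 59.3 CPM, a ratio of 0.12 (-0.08 to 0.32), and DICPs at 79.9 and 72.8 CPM, a ratio of -0.13 (-0.31 to 0.04). The median ratio over the 18 members was -0.10, against -0.06 over all features tested. With at least 1000 UMIs per cell and the cells clustered anew, 1785 and 1293 cells held the lymphoid-like name. Only 61 (DMSO) and 75 (ALK5i) of the cells named so before had under 1000 UMIs. Most of the loss thus came with the new clusters, and the set of cells differs. In that set 5 of 15 members were called and all were lower, so nitr2a and nitr7a were no longer called.

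In macrophage-like cells at 6 dpf, 2 of 8 members were called, against 19.8% of features. Both were lower with ALK5i, against 10.6% of features, and none was higher, against 9.17%. They were dicp1.1-a, at 21.9 (144 UMIs) and 13.4 CPM (52 UMIs) with a log2 ratio of -0.70 (-1.19 to -0.24), and dicp1.3-4, at 4.71 and 2.58 CPM with a ratio of -0.87 (-2.06 to 0.20). Cluster 5, where the dicp1.1-a level was highest, had 57 of 612 macrophage-like cells with DMSO and 24 of 404 with ALK5i. With 5 CPM added to each level neither was called. The others ranged from -0.34 for dicp2.2 to 0.06 for dicp3.1. For dicp2.1 the ratio was -0.33 (-0.52 to -0.14) over the class, -1.22 (-1.74 to -0.72) in cluster 1 and -1.68 (-2.65 to -0.79) in cluster 8, while cluster 0 stood at 176 and 177 CPM. Those of dicp1.17 and nitr2b were -0.21 (-0.72 to 0.29) and -0.16 (-0.54 to 0.21). The DICP sum stood at 494 and 466 CPM, a ratio of -0.08 (-0.17 to 0.00), and the NITR sum at 30.8 and 27.1 CPM, a ratio of -0.18 (-0.54 to 0.16).

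In the 78 lymphoid-like cells at 6 dpf, both members tested were called higher with ALK5i, against 44% of features called in either direction and 22.7% called higher. For dicp3.3 the values were 1 UMI (4.47 CPM) with DMSO and 21 UMIs in 10 cells (76.8 CPM) with ALK5i, a log2 ratio of 4.1 (1.47 to 9.47). For dicp1.1-a they were 5 and 15 UMIs, 22.4 and 54.9 CPM, with a ratio of 1.29 (-0.24 to 3.11). The DICP sum stood at 40.3 and 165 CPM, a ratio of 2.03 (0.98 to 3.25), and the NITR sum ratio was 0.26 (-0.75 to 1.31). The macrophage marker list stood at 1665 and 7401 CPM in the same cells, with 10 and 17 of 22 genes above 0. From this list, mpeg1.1 stood at 17.9 and 95.1 CPM there, and marco was at 0 UMIs in both libraries. These genes make up little of the rise in the list, and the genes that carry most of it are not named here. The cells differed otherwise too: il13 stood at 2125 CPM with DMSO and was at 0 UMIs with ALK5i, and mhc2a stood at 166 and 1057 CPM. The part of these differences in the result was not tested.

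**Figure D5:**
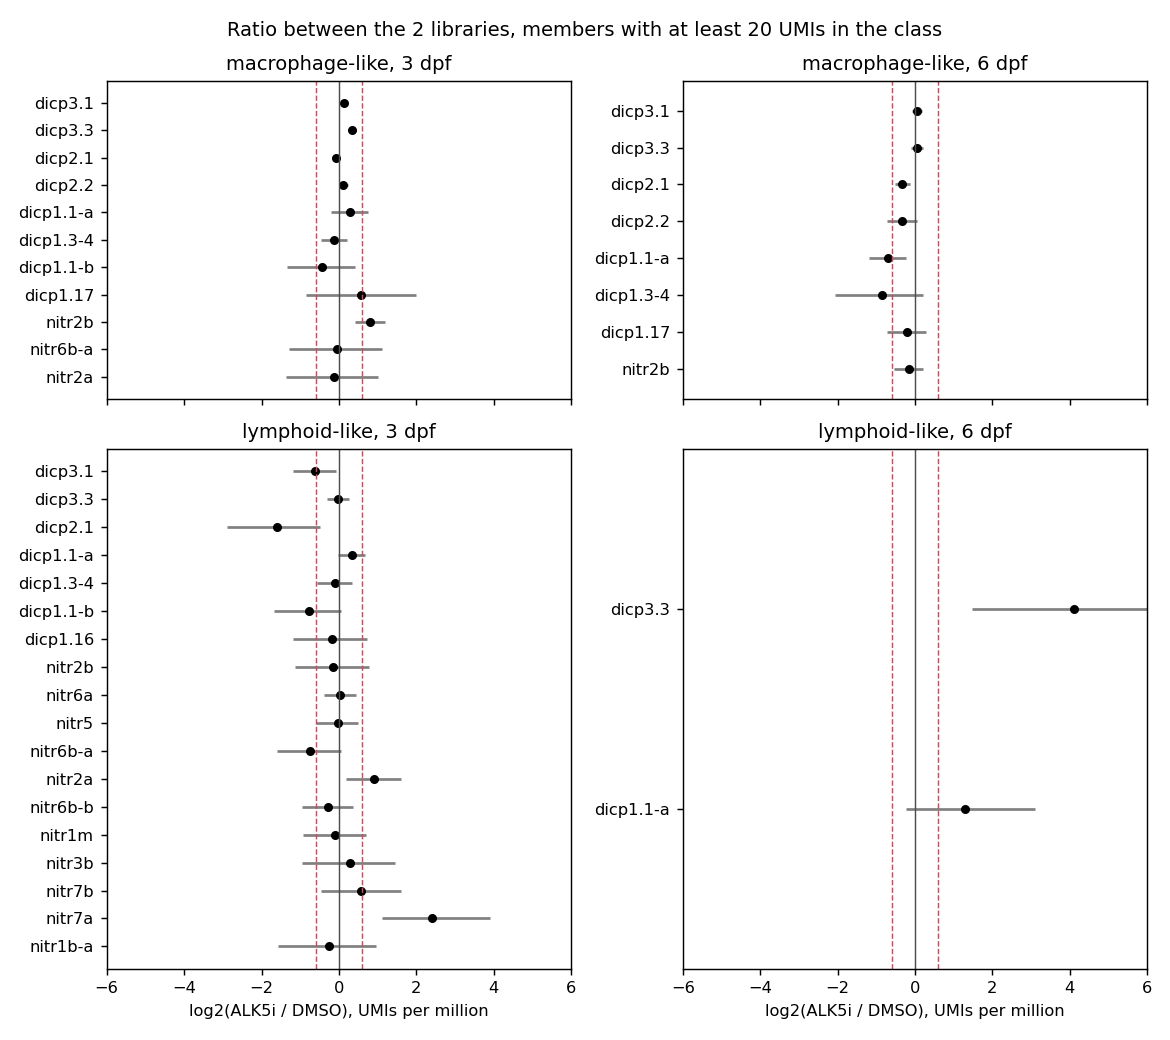
Log2 ratio of ALK5i over DMSO (CPM) for each member with at least 20 UMIs in the class over both libraries; points are ratios, grey lines are exact 95% intervals for counting error, and dashed red lines mark 1.5-fold. Macrophage-like DICPs at 3 dpf lie within the 1.5-fold lines, nitr2b is at 0.81, and nitr7a in lymphoid-like cells is at 2.42. The interval of dicp3.3 at 6 dpf runs past the axis, to 9.47.

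Between the DMSO libraries of 3 and 6 dpf, 8 of 11 members differed by at least 1.5-fold in macrophage-like cells, but so did 76.1% of all features, whose median log2 ratio was -1.11. Higher at 6 dpf were 4 members, against 7.88% of features: dicp1.17, from 0.354 to 15.5 CPM with a log2 ratio of 5.45 (4.51 to 6.55), dicp1.1-a at 2.93 (2.53 to 3.34), nitr2b at 2.81 (2.45 to 3.17) and nitr6b-a at 1.33 (0.05 to 2.54). Lower, against 68.2% of features, were dicp3.1 at -0.65, dicp3.3 at -0.63, dicp2.2 at -1.12 and dicp1.1-b at -2.07. In lymphoid-like cells 4 of 16 members were called, against 49.2% of features, 2 higher (11.3% of features) and 2 lower (37.9%), with 3 or fewer UMIs each at 6 dpf. In the 37 lymphoid-like cells with DMSO at 6 dpf, a count of 0 allows up to 13.4 CPM. Tested members at 0 UMIs there stood below that level at 3 dpf, so they could not be called lower. Among them were dicp1.3-4, with 126 UMIs at 3 dpf, and nitr6b-b, with 68. The count of 4 of 16 thus does not show that levels were alike. Macrophages were sorted by mpeg1.1 at 6 dpf only, so these ratios describe the libraries and not a course of development.

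Signalling partners of such receptors were examined as a list of 30 symbols, 29 of which matched. At 3 dpf 9 of 27 partners with enough UMIs marked macrophage-like cells, against 8.02% of features, among them the adaptor genes hcst (Dap10), fcer1g and fcer1gl, the kinase genes lyn and hck, and ptpn6, which encodes the phosphatase Shp1. Marking lymphoid-like cells were 10 of 28, against 9.24% of features, among them cd247 (the zeta chain), the kinase genes syk, zap70 and lck, and sh2d1ab. At 6 dpf 13 of 21 partners marked macrophage-like cells, against 13.9% of features, and 9 of 17 lymphoid-like cells, against 9.77%. The partners cd247, cd247l, lck, zap70 and lat are also in the T lineage marker list, and blnk is in the B lineage list. Those lists were used to name the clusters, so the marking of lymphoid-like cells by these partners was partly set by the naming.

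With ALK5i, 2 of 24 partners were called in macrophage-like cells at 3 dpf, against 16.2% of features. The adaptor gene tyrobp (Dap12) stood at 12.3 CPM with DMSO and 21.1 CPM with ALK5i, a log2 ratio of 0.79 (0.58 to 1.0). The other, cd247, stood at 1.24 and 0.421 CPM, a ratio of -1.56 (-2.88 to -0.43). In lymphoid-like cells at 3 dpf 1 of 28 was called, against 12.4% of features: blnk at 5.60 and 2.66 CPM. In macrophage-like cells at 6 dpf 2 of 20 were called, against 19.8% of features, and both were higher, against 9.17%: inpp5d, which encodes the phosphatase Ship1, at 5.31 and 9.30 CPM, and csk, a kinase that restrains Src kinases, at 9.26 and 17.3 CPM. In lymphoid-like cells at 6 dpf 8 of 13 were called, against 44% of features, 5 higher (22.7% of features) and 3 lower (21.3%). The largest rise among these was fcer1gl, at 197 and 849 CPM, a gene that also marked macrophage-like cells.

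Features most like the leading members were ranked by Pearson's r of log2(CPM + 5) over the blood-like clusters, 20 at 3 dpf and 11 at 6 dpf, which share libraries and depth. For dicp3.1 they were si:dkey-118k5.3 (r = 0.98), cyp2k8 and stx11a at 3 dpf, and rab20 (0.99), rdh12l and sdr16c5b at 6 dpf. For dicp3.3 they were fut7 (0.98), rnf167 and the myeloid transcription factor gene spi1b at 3 dpf, and capn7 (0.97), BX649485.1 and marcksl1a at 6 dpf. For nitr2b the closest was trim35-10 (0.84) at 3 dpf and casp21 (0.95) at 6 dpf. For nitr6a, at 3 dpf only, they were CT573342.2 (0.97), si:ch211-132p1.4 and ttpa.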

How the data were processed

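The deposited files hold counts, the number of UMIs of each feature in each cell barcode with no scaling. The authors obtained them with Cell Ranger, version 9.0.0 per the file headers and 9.0.1 per the submitters' processing notes, which name the build GRCz11. The annotation release, the settings that called cells and the treatment of reads matching several genes are not given in the sources used here. A UMI counts a molecule by its 3′ end, so levels are not scaled to gene length.

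A cell needed 500 UMIs, 300 genes and no more than 10% mitochondrial UMIs. Scrublet (in scanpy 1.11.5, expecting 0.4% doublets per 1000 cells) called 2570 and 2148 doublets at 3 dpf, 7.52% and 7.82% where 13.7% and 11.0% were expected. It called 5 in each library at 6 dpf, 0.252% and 0.422% where 0.794% and 0.474% were expected. These cells were removed. Both libraries of each stage then entered 1 Leiden clustering (2000 variable genes, 30 principal components, 15 neighbours, resolution 1) with no integration step. Members, partners, mitochondrial genes and 13 added sequences were kept out of the variable genes. First-round clusters numbered 31 and 27, and blood-like ones were clustered a second time into 20 and 11.

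Names came from 26 marker lists and 3 lists of macrophage states, of whose 348 symbols 334 matched. A marker counted when 10% of a cluster's cells had it and its CPM was 1.5-fold that of all other kept cells, and a name needed 3 markers. The conditions for a name were chosen once clusters could be seen, and the names are rebuilt, not the study's. Microglia-like clusters count as macrophage-like. Lymphoid-like joins the T, B and natural killer or innate lymphoid names.

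UMIs were summed per class and library. Intervals are exact 95% ones (conditional binomial for ratios, Poisson for CPM, Clopper-Pearson for shares) and cover counting error only. For a count of 0 the limit given is 3 UMIs, which lies below the upper end of the Poisson interval. In lymphoid-like cells with DMSO at 6 dpf these are 13.4 and 16.5 CPM. With 1 library per group there is no replicate check. The rule for named genes took the 14 members with 100 or more UMIs, members called with an interval past 1-fold, and the 3 features most like the 2 leading members of each family. Other members named were chosen after their values were seen. Members and lists were chosen with earlier results of these data known. Ratio calls were tried on simulated counts with counting error only, and changes were set only in features with many UMIs. Changed features with few UMIs, UMIs clumped in single cells and variation between pools were not covered. Alternatives were 1000 UMIs per cell, resolution 0.5, doublets kept, median-of-ratios scaling, no UMI minimum, 5 CPM added before log2, a 5-fold marking rule and family sums without the leading member. Python 3.11.15 ran leidenalg 0.10.2, scikit-learn 1.9.0 and scipy 1.17.1.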

Additional observations from a re-analysis of the deposited data

How the results depend on the processing

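Of 80 alternative values for 16 results, 66 stayed within 1.5 times the count or within the interval reported. Counts of calls were compared without their direction. In lymphoid-like cells at 3 dpf, 2 higher and 4 lower became 0 higher and 5 lower with at least 1000 UMIs per cell, which is among the 66. So is the marking of lymphoid-like cells at 6 dpf, which had little room to change with 2 members tested. No paired analysis was possible because each group has 1 library. Members called in macrophage-like cells at 3 dpf went from 1 to 2 with at least 1000 UMIs per cell, with doublet calls kept and with scaling by the median of ratios, to 5 with no minimum of UMIs, and to 0 with log2 of CPM + 5. With log2 of CPM + 5 the calls went from 6 to 1 in lymphoid-like cells at 3 dpf and from 2 to 0 in macrophage-like cells at 6 dpf. With no minimum of UMIs they went to 10, to 6 and, in lymphoid-like cells at 6 dpf, from 2 to 5, and keeping doublet calls gave 1 there. The NITR sum ratio in macrophage-like cells at 3 dpf turned from 0.35 to -0.72 without nitr2b, which holds 231 of its 338 UMIs. The DICP sum ratio there was 0.25 with scaling by the median of ratios, and at 6 dpf it was -0.17 without dicp3.1. Causes beyond these constructions were not tested. The members marking a class at 3 dpf numbered 5 to 6 for macrophage-like and 14 to 17 for lymphoid-like cells, and at 6 dpf 6 to 8 and 0. The macrophage-like class at 6 dpf itself changed, from 612 (DMSO) and 404 cells (ALK5i). It held 358 and 259 cells with 1000 UMIs and 402 and 266 at resolution 0.5. Of the 7 members marking it, 5 and 6 did so in these alternatives. There nitr2b with DMSO went from 26.3 to 37.4 and 35.8 CPM. In alternatives added after the values had been seen (1000 UMIs, resolution 0.5, doublets kept), dicp1.1-a and nitr1k peaked at 3 dpf in a cluster led by eomesa, and dicp1.17 and nitr2b at 6 dpf in one led by gdpd3b. Depth limits the 6 dpf lymphoid-like values, which rest on 37 and 41 cells.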
